A study of Mus musculus with 2 samples.

Results

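In single cells of these tumors, 10 integrin subunit genes from among those of RGD-binding and collagen-binding receptors were followed: Itgav, Itgb1, Itgb3, Itgb5, Itgb6, Itgb8, Itga5, Itga8, Itga11 and Itga1. They were chosen by name, as receptors of the kind that bind the RGD site of fibrillin-1 or fibrillar and basement membrane collagen, and all 10 of 10 were matched among the 32285 genes of the deposited matrices. Transcripts of individual cells were counted from their 3′ ends (10x Genomics) in 2 libraries, 1 of WT and 1 of TSK hosts, each made from subcutaneous tumors pooled within the genotype. The tumors grew from SO cells, a syngeneic ovarian cancer line that carries a p53 deletion with HRAS V12 and MYC, so that the cancer cells of both libraries come from the same injected line. Hosts were female C57BL/6 mice of 6 to 8 weeks. TSK mice are heterozygous for a duplication within Fbn1, the fibrillin-1 gene. With 1 library per genotype there is no test of genotype: the ranges given with values are exact 95% intervals that cover counting error only, and a difference between the libraries cannot be told apart from a difference between 2 pools of tumors.

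An integrin is a pair of 1 alpha and 1 beta subunit that spans the cell membrane, binds matrix outside and links to the actin cytoskeleton inside. The alpha v pairs and alpha 5 beta 1 and alpha 8 beta 1 recognise the tripeptide Arg-Gly-Asp (RGD) in fibronectin, vitronectin, osteopontin, fibrillin-1 and the latency peptides of TGF-β1 and TGF-β3, and the alpha v beta 6 and alpha v beta 8 pairs are known for releasing active TGF-β from those peptides. Alpha 1 beta 1 and alpha 11 beta 1 bind collagen, the first with a preference for basement membrane collagen IV and the second for fibrillar collagen. Because a beta 1 subunit serves many alpha subunits, the alpha subunit or the beta subunit that partners alpha v decides which ligand a cell can bind.

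The ligand sites themselves are shown here because they define the group. Each stretch is the coding sequence of the mouse reference (GRCm38, GENCODE M21), 5′ to 3′ on the coding strand, with the codons for Arg-Gly-Asp in capitals and 24 bases on either side. The fibrillin-1 site lies in exon 38 of 66 of Fbn1-201 (chr2:125345949-125346005, minus strand), within the stretch that is duplicated in TSK mice. The fibronectin site shown lies in exon 30 of 46 of Fn1-201 (chr1:71606722-71606778, minus strand), the osteopontin site in exon 7 of 8 of Spp1-202 (chr5:104439457-104439513, plus strand) and the TGF-β3 site in exon 5 of 7 of Tgfb3-201 (chr12:86062141-86062197, minus strand), while the vitronectin and TGF-β1 stretches each cross an exon boundary (Vtn-201, chr11:78499604-78499738, plus strand; Tgfb1-201, chr7:25696989-25697174, plus strand).
Fbn1: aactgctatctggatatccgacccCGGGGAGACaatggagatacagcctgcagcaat
Fn1: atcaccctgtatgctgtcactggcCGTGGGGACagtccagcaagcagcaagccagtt
Vtn: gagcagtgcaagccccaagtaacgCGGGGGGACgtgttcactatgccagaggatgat
Spp1: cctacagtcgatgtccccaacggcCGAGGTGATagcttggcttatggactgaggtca
Tgfb1: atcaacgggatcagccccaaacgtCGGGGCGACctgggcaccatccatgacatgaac
Tgfb3: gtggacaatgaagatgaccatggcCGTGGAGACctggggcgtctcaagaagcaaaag
For the collagen receptors, the triple-helical motif GFOGER of the alpha 1 chain of collagen I is encoded in exon 31 of 51 of Col1a1-201 (chr11:94945398-94945550, plus strand), with its 6 codons in capitals below.
Col1a1: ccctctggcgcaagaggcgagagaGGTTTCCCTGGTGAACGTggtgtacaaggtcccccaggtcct
Among 21558 complete mouse coding sequences (1 transcript a gene), 1552 or 7.2% encode an RGD tripeptide in frame. The GFOGER sequence is encoded by 9 or 0.0417%. These counts do not tell which of the proteins bind integrins, which was not tested.

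After the cell filter (at least 200 genes and 500 UMIs, at most 10% mitochondrial UMIs, and a barcode found in 1 library only), 1442 cells of the WT library (17070622 UMIs in all) and 2961 of the TSK library (45661542 UMIs) remained. Of these, 3339 cells were assigned to 7 lineages by raw UMIs of marker genes: 134 WT and 211 TSK fibroblasts, 20 and 40 mural cells, 54 and 42 endothelial cells, 89 and 1068 cancer cells, 296 and 415 macrophages and monocytes, 29 and 195 neutrophils, and 469 and 277 T and NK cells. Each lineage carried its own marker list at 2252 counts per 1000000 UMIs or more in both libraries. That level follows from the assignment, which used the same lists, and is no separate evidence for the lineage names. The keratinocyte markers, also part of the rule, were at 0 in every lineage. Cells were deeper in the WT library in every lineage, with median UMIs of 23438.5 against 11072 in fibroblasts and 6885 against 3041 in T and NK cells. Cancer markers (Lgals7, Cdkn2a, Krt18, Hmga2) also reached the other lineages. Their level there was 0.202% to 0.303% of that in cancer cells in the WT library. In the TSK library it was 2.28% to 4.67%, apart from neutrophils with 20.2%. The assignment used the same 4 markers and left out cells rich in them, so these shares may be too low. Levels are given below as counts per 1000000 UMIs of the lineage, in short CPM. Since only 3′ ends were counted, they compare lineages and libraries for 1 gene and not different genes.

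The 10 subunits were spread over the lineages in different ways. Itgb1 and the alpha v gene were found in every lineage, the mural and endothelial lineages held most Itga1 per UMI counted, the fibroblast and mural lineages held most Itga5, Itgb5 and Itgb6, Itga11 was highest in fibroblasts, and Itgb8 and Itga8 were highest in cancer cells when both libraries were summed. In the TSK library alone the leading lineage was another one for Itgb8 (T and NK cells) and Itgb6 (fibroblasts). The plot of levels by lineage shows all 10 genes in both libraries.

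**Figure D1:**
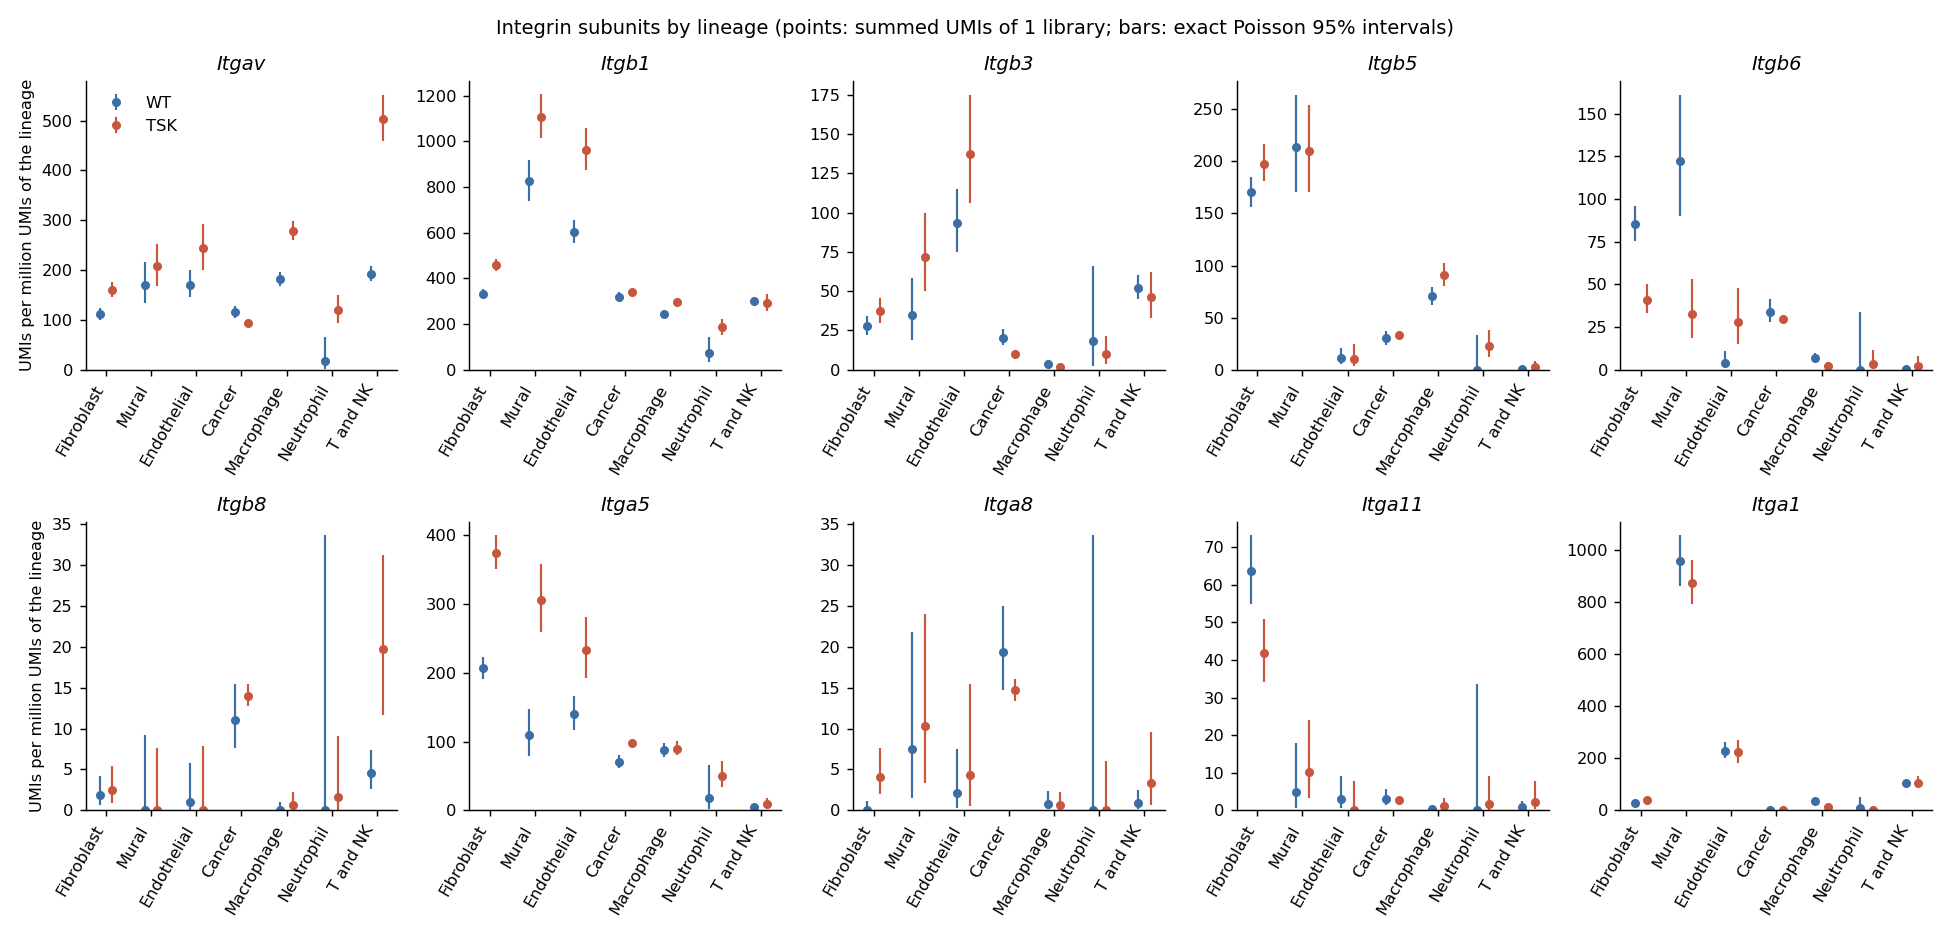
Each panel is 1 subunit gene, with the 7 lineages on the x axis and CPM, counts per 1000000 UMIs of the lineage on the y axis. Blue points are the WT library and red points the TSK library, and bars are exact Poisson 95% intervals. The red point of Itgav in T and NK cells (504) stands far above the blue one (193), and the red points of Itgb6 in fibroblasts (41.0) and mural cells (32.9) lie below the blue ones (85.1 and 122).

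Itgb1 encodes the beta 1 subunit, the partner of alpha 5, alpha 8, alpha 1 and alpha 11 and of many other alpha subunits. Its level over both libraries was 979.7 (interval 916 to 1047) in mural cells, 722 (678 to 767) in endothelial cells, 388 in fibroblasts, 339 in cancer cells, 298 in T and NK cells, 268 in macrophages and monocytes and 169 in neutrophils. No interval overlapped that of its neighbour in this order. A UMI of Itgb1 was found in 96.7% of mural cells and 90.3% of cancer cells, and in 26.8% of the much shallower neutrophils.

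Itgav encodes the alpha v subunit, which pairs with beta 1, beta 3, beta 5, beta 6 or beta 8. Its highest level over both libraries was in T and NK cells (257, 242 to 272), followed by macrophages and monocytes (227, 215 to 238), endothelial cells (195, 173 to 219.7), mural cells (191, 164 to 222), fibroblasts (133, 124 to 143), neutrophils (104, 81.5 to 129.8) and cancer cells (96.3, 93.1 to 99.6). The intervals of macrophages, endothelial and mural cells overlapped in this order, as did those of fibroblasts, neutrophils and cancer cells. Without the T cells that held a UMI of Foxp3, the level in the other T and NK cells was 219 over both libraries, below macrophages. By library it was 172 (158 to 186) against 182 (168 to 196) in macrophages in WT, and 405 (363 to 449) against 279 (261 to 298) in TSK, where T and NK cells still led. Cancer cells gave 46.5% of all Itgav UMIs and 64.3% of all UMIs in the 7 lineages.

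The alpha v partners differed between lineages. Itgb3, the beta 3 subunit of the vitronectin receptor, was highest in endothelial cells (107, 91.1 to 126), followed by mural cells (55.1) and T and NK cells (51.0), and was lowest in macrophages and monocytes (2.77). Itgb5, the beta 5 subunit of another vitronectin receptor, was at 211 (182 to 244) in mural cells and 183 (171 to 194) in fibroblasts, whose intervals overlapped, and at 79.7 in macrophages and monocytes. Endothelial cells held 16 UMIs of Itgb5 (11.2 CPM) and T and NK cells 4. The lineage with the highest Itgb3 level was thus among the lowest for Itgb5, and macrophages and monocytes, next after fibroblasts for Itgb5, were lowest for Itgb3.

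Itgb6 and Itgb8 encode the subunits known for TGF-β activation. Itgb6, best known from epithelium, was at 73.1 (56.4 to 93.2) in mural cells, 65.8 (59.3 to 73.0) in fibroblasts and 29.8 (28.1 to 31.7) in cancer cells, and at 0.903 in T and NK cells. In the mural cells of the WT library 24 of 49 Itgb6 UMIs came from 1 cell, and without that cell the WT mural level was 71.8 in place of 122. Itgb8 was at 13.8 (12.6 to 15.1) in cancer cells, which gave 90.8% of its UMIs and 64.3% of all UMIs, and at 7.68 (5.32 to 10.7) in T and NK cells. In the TSK library Itgb8 was at 14 (12.8 to 15.4) in cancer cells and 19.7 (11.7 to 31.2) in T and NK cells, with overlapping intervals. No Itgb8 UMI was found in the 60 mural cells, where the limit for a count of 0 was 3.37 CPM.

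Itga5 and Itga8 encode the alpha subunits of the RGD-binding beta 1 integrins, of which alpha 5 beta 1 is the main fibronectin receptor. Itga5 was at 280.2 (266 to 295) in fibroblasts, 217 (188 to 250.0) in mural cells and 171 (149.9 to 194) in endothelial cells, then at 96.0 in cancer cells, 88.6 in macrophages and monocytes, 45.6 in neutrophils and 5.64 in T and NK cells. Itga8 was at 15.1 (13.8 to 16.4) in cancer cells, which gave 94.2% of its UMIs. Elsewhere Itga8 was near its detection limit: 8 UMIs in mural cells (9.0 CPM, 3.88 to 17.7), an interval that overlapped that of cancer cells, and 10 in fibroblasts, all of them in 2 cells of the TSK library.

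Itga1 and Itga11 encode the collagen-binding alpha subunits. Itga1 was at 912 (850.5 to 977) in mural cells, 228 (204 to 255) in endothelial cells, 106 in T and NK cells, 32.7 in fibroblasts, 26.8 in macrophages and monocytes and 2.86 in cancer cells. Itga11, known from matrix-producing fibroblasts, was at 54.1 (48.1 to 60.6) in fibroblasts and at 7.87 (3.17 to 16.2) in mural cells, the next lineage. Fibroblasts gave 72.0% of the Itga11 UMIs and 9.95% of all UMIs. Cancer cells held 95 Itga11 UMIs (2.66 CPM). The gene Pelo lies within Itga1 on the same strand, so that UMIs counted for Itga1 are uncertain to the extent that the counting could split the pair.

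Between the libraries, a member was compared within a lineage where it had at least 50 UMIs over both libraries, which left 40 of the 70 combinations of member and lineage. Of these, 5 were at least 2-fold higher in TSK, 4 at least 2-fold lower and 31 neither. Of all genes with at least 50 UMIs, 2.68% (T and NK cells) to 31.8% (neutrophils) were 2-fold or more higher. The share 2-fold or more lower was 1.92% (macrophages and monocytes) to 16.7% (neutrophils). Neutrophils gave 2 of the 5 higher combinations, Itgav (2 WT and 73 TSK UMIs) and Itgb1 (8 and 114). These, and Itga1 in cancer cells (3 and 99), reached 50 UMIs almost wholly through the TSK library. That library held 614308 against 109715 UMIs in neutrophils and 32688947 against 2997238 in cancer cells. The filter on summed UMIs favours genes high in TSK there, so these higher calls are no support for a difference. Most genes of a lineage were slightly higher in the TSK library on this scale: the median log2 ratio of all genes with at least 50 UMIs was between 0.10 and 0.31 in the 7 lineages, and the ratio of a member relative to that median is given beside the main ones. With the medians set to 0, the same 5 and 4 combinations were past 2-fold.

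**Figure D2:**
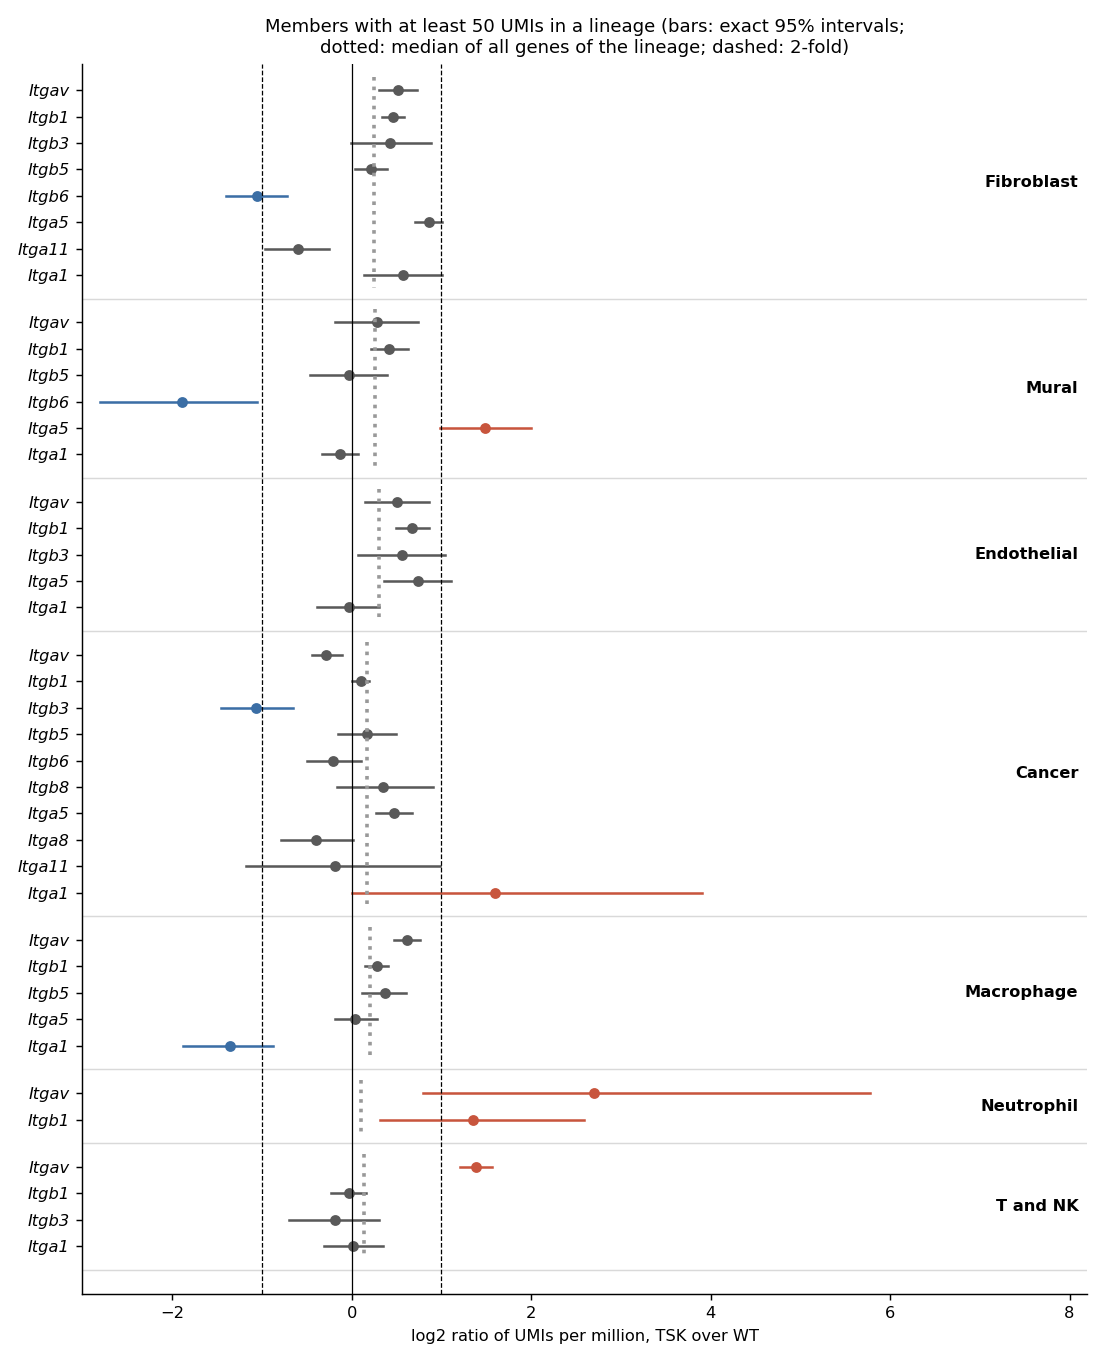
The x axis is the log2 ratio of CPM, TSK over WT, and each row is 1 member in 1 lineage with at least 50 UMIs. Bars are exact conditional 95% intervals, red marks 2-fold or more higher, blue 2-fold or more lower, dashed lines mark 2-fold and dotted lines the median of all genes of the lineage. Itgav in T and NK cells (1.39) has a narrow interval above 1, while Itgav in neutrophils (2.70) has a wide one.

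In T and NK cells, 1 of the 4 members with at least 50 UMIs was 2-fold or more higher in TSK, against 2.68% of all genes, and none was lower, against 1.99%. Itgav was counted 678 times in WT and 460 times in TSK cells, and its level was 193 (179 to 208) and 504 (459 to 552). This is a 2.62-fold difference (log2 ratio 1.39, 1.21 to 1.56, and 1.25 relative to the median gene). The share of cells with an Itgav UMI was 44.8% in WT and 42.2% in TSK, beside median depths of 6885 and 3041 UMIs. When each cell was thinned to 1000 UMIs, which left out 6 shallower TSK cells, it was 14.1% in WT and 30.3% in TSK. At that depth the share in fibroblasts was 7.58% in WT and 10.7% in TSK (2 and 5 cells left out). Itgb1 (299 and 293), Itga1 (106 and 107) and Itgb3 (52.3 and 46.0) had intervals of their log2 ratio that included 0 in the same cells. The cancer marker level of TSK T and NK cells was 4.67% of that in cancer cells, and that share of cancer RNA would carry an Itgav level of 4.42. The part of RNA from other cells in the Itgav difference was not tested.

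Itgav was also higher in TSK in most subsets of these cells. In CD8 T cells, defined by a UMI of Cd8a or Cd8b1 and none of Cd4, Itgav was at 141 in the 318 WT cells and 394 in the 177 TSK cells (log2 ratio 1.48, 1.24 to 1.73). In CD4 T cells it was at 359 and 789 (58 and 23 cells, log2 ratio 1.14, 0.69 to 1.57). The remaining cells (92 and 71) had UMIs of neither or of both gene groups, and cells called NK were left out of them. Itgav was there at 258 and 730.3 (log2 ratio 1.5, 1.19 to 1.82). By cluster, Itgav was at 129.8 and 369 in the cluster led by Nkg7 and Gzmb and at 409.9 and 1197 in that led by Icos and Ctla4. In the cluster led by Gzma, with 66 WT and 27 TSK cells, the values were 199.7 and 217 and the interval of the log2 ratio, -0.63 to 0.80, included 0. The same held for the CD4 T cells with no UMI of Foxp3 (53 and 20 cells), at 282 and 414 with an interval of -0.10 to 1.16.

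Within the T and NK lineage, Itgb8 was found mostly in a few cells. Foxp3 is the transcription factor of regulatory T cells, and 12 WT and 12 TSK cells held a UMI of it, a split chosen after the values had been seen. These 24 cells were 3.22% of the T and NK cells and gave 3.50% of their UMIs, but 29 of the 34 Itgb8 UMIs (85.3%). An Itgb8 UMI was found in 14 of the 24 cells and in 4 of the other 722. Itgav was also higher in them, at 863 (WT) and 2328 (TSK) against 172 and 405 in the cells with no Foxp3 UMI. Itga1 was the reverse, with 0 of its 470 UMIs in cells with a Foxp3 UMI. The Itgb8 level of these cells was 139 in WT (15 UMIs) and 296 in TSK (14 UMIs), with a log2 ratio of 1.09 whose interval, -0.07 to 2.24, included 0. In T and NK cells as a whole Itgb8 had 16 and 18 UMIs (4.55 and 19.7 CPM), while cells with a Foxp3 UMI were 2.56% of the WT and 4.33% of the TSK T and NK cells. The part of that share in the Itgb8 difference was not tested.

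**Figure D3:**
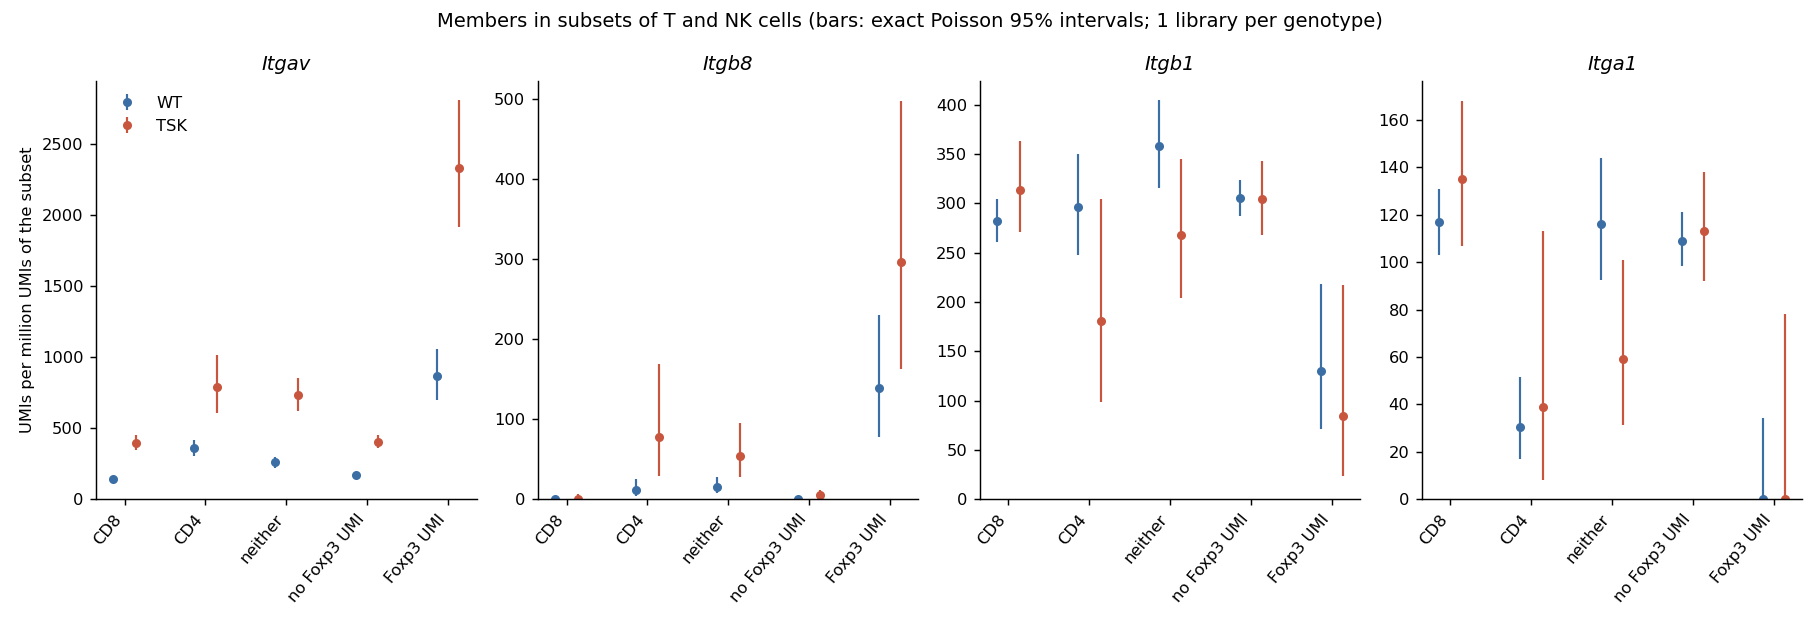
Panels show Itgav, Itgb8, Itgb1 and Itga1 in subsets of T and NK cells, with CPM, counts per 1000000 UMIs of the subset on the y axis, blue for the WT and red for the TSK library, and exact Poisson 95% intervals as bars. Itgav is higher in TSK in each of the 5 groups drawn, which overlap in their cells, and Itgb8 stands at 139 and 296 in cells with a Foxp3 UMI and near 0 in CD8 cells. The group labelled neither also takes in cells with UMIs of both Cd8 and Cd4 genes.

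In macrophages and monocytes, none of the 5 members with at least 50 UMIs was 2-fold or more higher in TSK, against 5.34% of all genes, and 1 was 2-fold or more lower, against 1.92%. Itga1, the alpha 1 collagen receptor subunit, had 138 UMIs in WT and 46 in TSK, with levels of 37.4 (31.4 to 44.1) and 14.5 (10.6 to 19.4) (log2 ratio -1.36, -1.88 to -0.87). All of these UMIs lay in the cluster led by Arg1 and C1qa, with 246 WT and 274 TSK cells, where the level was 43.7 and 20.7. That cluster held 83.1% of the WT and 66.0% of the TSK macrophages and monocytes. The T and NK marker list, of a lineage that carries Itga1, was at 5.96 in the WT and 15.5 in the TSK cells, and its part in the result was not tested.

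Itgav in macrophages and monocytes was at 182 (168 to 196) in WT and 279 (261 to 298) in TSK, a 1.53-fold difference with a log2 ratio of 0.62 (0.47 to 0.76) and 0.41 relative to the median gene. The clusters of the lineage did not share this difference. Itgav was at 193 and 344 in the cluster led by Arg1 (log2 ratio 0.83, 0.68 to 0.99) and at 13.8 and 161 in that led by H2-Aa, from 2 UMIs (21 cells) in WT and 47 (60 cells) in TSK. In the cluster led by Ccl8 and Retnla it was at 154 and 102 (log2 ratio -0.60, -1.13 to -0.06). Itgb5 was at 70.4 and 90.7, and Itga5 at 87.4 and 90 with an interval of its log2 ratio of -0.19 to 0.28.

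In fibroblasts, none of the 8 members with at least 50 UMIs was 2-fold or more higher in TSK, against 5.94% of all genes, and 1 was 2-fold or more lower, against 2.70%. Itgb6 had 265 UMIs in WT and 99 in TSK, with levels of 85.1 (75.2 to 96.0) and 41.0 (33.3 to 49.9), a 2.08-fold difference (log2 ratio -1.05, -1.40 to -0.72, and -1.31 relative to the median gene). A UMI of Itgb6 was found in 48.5% of WT and 19.9% of TSK fibroblasts. T and NK cells, the lineage with least Itgb6, had one in 0.536% of cells at a median of 5424.5 UMIs, against 13532 in fibroblasts. Thinned to 1000 UMIs, the share was 6.82% of WT and 3.40% of TSK fibroblasts. Itga11 was also lower in TSK, at 63.6 (55 to 73.1) and 41.8 (34.1 to 50.8), with a log2 ratio of -0.60 (-0.96 to -0.25).

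Other members were higher in TSK fibroblasts by less than 2-fold. Itga5 was at 207 (191 to 223) in WT and 375 (351 to 400.0) in TSK, a 1.81-fold difference (log2 ratio 0.86, 0.71 to 1.01, and 0.60 relative to the median gene). Itgav was at 112 and 160.3, Itgb1 at 333 and 458, and Itga1 at 27.0 and 40.2, each with an interval of the log2 ratio above 0. The median gene of fibroblasts was itself at 0.25, and Itgb5, at 170.2 and 198, was within 0.03 of it. The Itga1 difference was gone when barcodes found in both libraries were kept (log2 ratio -0.06 in place of 0.57). The fibroblasts were also split by marker: 131 of 134 WT and 183 of 211 TSK fibroblasts held a UMI of Clec3b, Pi16 or Cd34, genes of the universal fibroblast type. WT fibroblasts were deeper, and the part of depth in these shares was not tested. Among the cells that did, Itgb6 was at 85.8 and 43.0, Itga5 at 207 and 348 and Itga11 at 64.1 and 44.4. The TSK fibroblasts that did not hold such a UMI (28 cells) had Itga5 at 549.5, Itgb1 at 705 and Itgav at 304.

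Depth moved with these values. Among fibroblasts with over 10000 UMIs (112 WT and 118 TSK), Itga5 was at 201 and 434, but among those with at most 10000 (22 and 93) it was at 343 (42 UMIs) and 179.6 (101 UMIs), so the direction turned in the shallower cells. Itgb6 and Itga11 were lower in TSK at both depths: Itgb6 at 85.3 and 47.0 in the deeper and 81.8 and 21.3 in the shallower fibroblasts, and Itga11 at 62.2 and 37.2 and at 98.1 and 56.9. The Itgav values of T and NK cells with at most 10000 UMIs were 183 and 499, and those of macrophages were 159 and 284 in the shallower and 188 and 273 in the deeper cells.

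**Figure D4:**
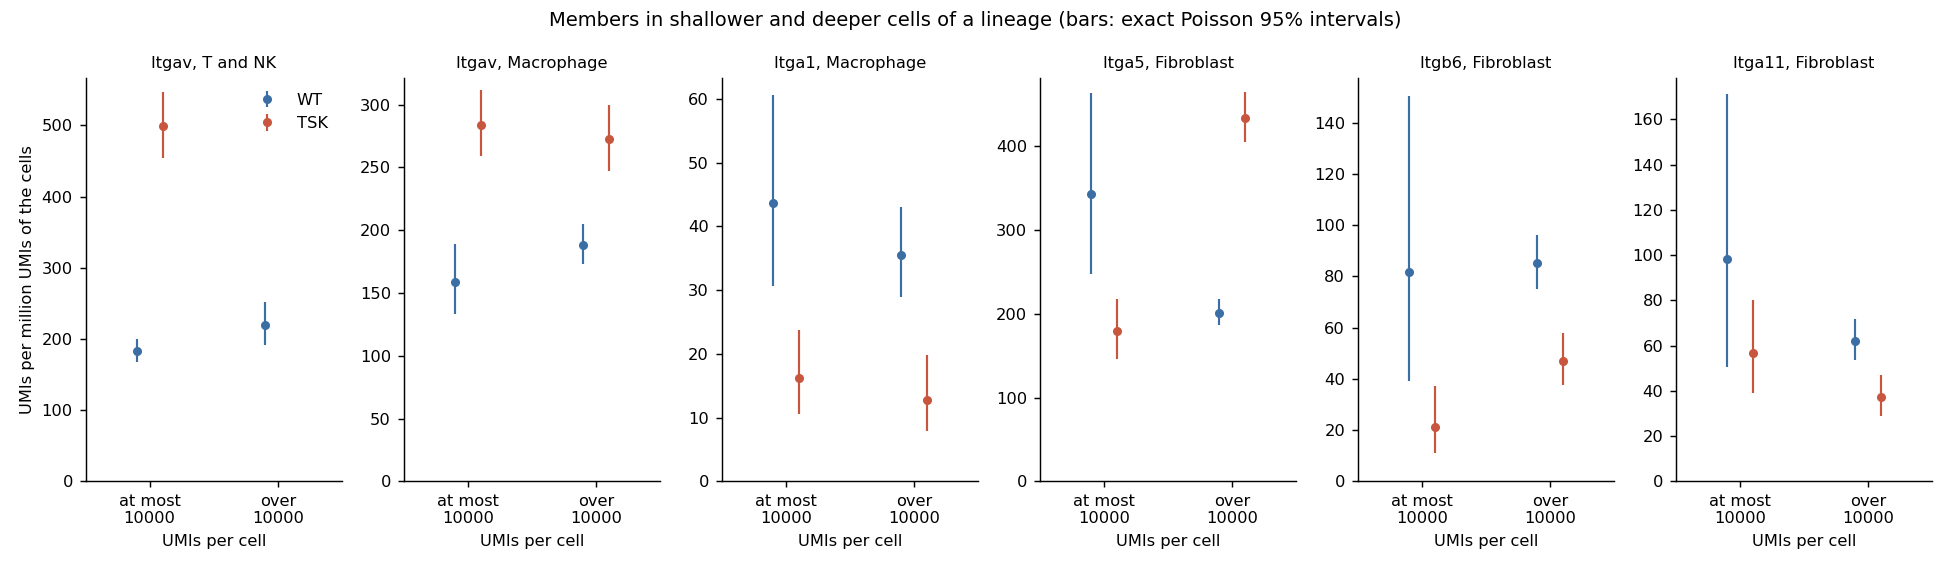
Each panel is 1 member in 1 lineage, split on the x axis by UMIs per cell, with CPM, counts per 1000000 UMIs of those cells on the y axis, blue for WT and red for TSK, and exact Poisson 95% intervals as bars. The TSK value of T and NK cells with over 10000 UMIs is left out because it is 1 cell. The red and blue points of Itga5 in fibroblasts change places between the shallower (179.6 and 343) and the deeper cells (434 and 201), and the other panels with both depths keep their order.

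Mural cells, which carry markers of pericytes and smooth muscle, were few, and 1 cell could give much of a member's UMIs: 24 of 49 (49.0%) for Itgb6 in WT and 9 of 16 (56.2%) in TSK. Of the 6 members with at least 50 UMIs, 1 was 2-fold or more higher in TSK, against 9.54% of all genes, and 1 lower, against 6.33%. Itga5 was at 109 (79.5 to 147) in the 20 WT and 306 (259 to 359) in the 40 TSK cells, a log2 ratio of 1.49 (0.99 to 2.0); without the highest cell of each library the values were 89.6 and 248. Itgb6 was at 122 and 32.9 (log2 ratio -1.89, -2.80 to -1.05), and without the highest cell of each library at 71.8 and 17.0. Itga1 was at 957 and 875 and its log2 ratio of -0.13 had an interval of -0.33 to 0.07.

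In endothelial cells, none of the 5 members with at least 50 UMIs was past 2-fold in either direction, against 11.6% of all genes higher and 5.50% lower. Itgb1 was at 603 (555 to 655) in the 54 WT and 963 (876 to 1057) in the 42 TSK cells, a 1.60-fold difference (log2 ratio 0.67, and 0.37 relative to the median gene). Itga5 was at 140.1 and 233, Itgav at 171 and 244 and Itgb3 at 93.1 and 137, all with intervals of the log2 ratio above 0. The median gene of these cells was itself at 0.31, so an interval above 0 does not set a member apart from other genes. Itga1, the other main collagen receptor subunit of these cells, was at 230.1 and 225 with an interval of -0.38 to 0.31. This value joined opposite directions at different depths: Itga1 was at 424 (324 to 546) in WT and 157 (97.2 to 240.0) in TSK in cells with at most 10000 UMIs (21 and 23 cells, log2 ratio -1.43), and at 196 (167 to 229) and 252 (201 to 312) in deeper ones. In WT cells 53 of 164 Itgav UMIs came from 1 cell, and the WT value without it was 123.

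In cancer cells all 10 members had at least 50 UMIs; 1 was 2-fold or more higher in TSK, against 9.69% of all genes, and 1 lower, against 6.56%. Different clusters held these cells in the 2 libraries: 70.8% of the 89 WT but 35.1% of the 1068 TSK cancer cells lay in the cluster led by Krt18 and Hmga2, while the cluster led by Mid1 and Cdkn2a held 7.87% and 35%. Itgb3 was at 20.4 (15.6 to 26.1) in WT and 9.73 (8.69 to 10.9) in TSK, a log2 ratio of -1.06 (-1.46 to -0.65). Within the Krt18 and Hmga2 cluster it was at 16.8 and 13.5, and the interval of the log2 ratio, -0.82 to 0.23, included 0. Itga5 was at 71.1 and 98.3 in all cancer cells and at 80.9 and 135 in that cluster (log2 ratio 0.74, 0.52 to 0.96). Itga1 was past 2-fold from 3 WT and 99 TSK UMIs, levels of 1.00 and 3.03, with an interval of the log2 ratio of 0.01 to 3.90. Itgav was at 115 and 94.6, Itgb1 at 319 and 341, Itgb6 at 34.0 and 29.5, Itgb8 at 11 and 14 and Itga8 at 19.4 and 14.7. In WT, 1 cell gave 21 of 58 Itga8 UMIs. Without the highest cell of each library the order turned for Itga8 (12.5 and 14.2) and Itgb6 (27.9 and 28.6). It stayed for Itgav (104 and 93.6), Itgb1 (311 and 338) and Itgb8 (7.47 and 13.5). Itgav was at 106 and 105 in the Krt18 and Hmga2 cluster. In the Mid1 and Cdkn2a cluster it was at 227 (7 WT cells) and 109.

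Neutrophils held few integrin UMIs, and only Itgav and Itgb1 had at least 50. Both were 2-fold or more higher in TSK, against 31.8% of all genes, and none lower, against 16.7%. Itgav had 2 UMIs in the 29 WT and 73 in the 195 TSK neutrophils (18.2, 2.21 to 65.8, and 119, 93.1 to 149), and Itgb1 had 8 and 114 (72.9 and 186). The cancer RNA that their marker level stands for, 20.2% in TSK, would carry levels of 19.2 for Itgav and 69.1 for Itgb1. The part of such RNA in the 2 differences was not tested.

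Whether a cell can form a receptor depends on both subunits, so the share of cells with a UMI of both was counted for 9 pairs. In fibroblasts, 7 of the 9 pairs reached 10% of cells: Itga5 with Itgb1 in 68.4% (63.2% to 73.3%, exact binomial interval), Itgav with Itgb1 in 63.2%, Itgav with Itgb5 in 55.7%, Itga11 with Itgb1 in 38.8%, Itgav with Itgb6 in 24.9%, Itgav with Itgb3 in 23.8% and Itga1 with Itgb1 in 21.4%. Itgav with Itgb8 (2.03%) and Itga8 with Itgb1 (0.580%) did not. The shares lay near the product of the single shares (65.6% for Itga5 with Itgb1 and 20.7% for Itgav with Itgb6), and deeper cells hold more UMIs of any gene. With each fibroblast thinned to 1000 UMIs no pair reached 10%, and Itga5 with Itgb1 led with 6.21%.

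The share of cells with a pair was lower in the shallower TSK library also for some pairs with a member whose level was higher there. Itga5 with Itgb1 was found in 76.9% of WT and 63.0% of TSK fibroblasts. Thinned to 1000 UMIs, the pair was left in 4 of 132 (3.03%) and 17 of 206 (8.25%), small counts for an order at equal depth. In T and NK cells Itgav with Itgb1 was found in 32.4% and 17.7%. When thinned, it was left in 17 of 469 (3.62%) and 15 of 271 (5.54%), also small counts. Itgav with Itgb6 was found in 41.8% (33.3% to 50.6%) of WT and 14.2% (9.80% to 19.7%) of TSK fibroblasts, and Itga11 with Itgb1 in 54.5% (45.7% to 63.1%) and 28.9% (22.9% to 35.5%), beside the median depths of 23438.5 and 11072 UMIs. Thinned, the first pair was left in 1 of 132 WT and 1 of 206 TSK fibroblasts (0.758% and 0.485%). The other was left in 5 and 2 (3.79% and 0.971%). These cells are too few to compare the libraries at equal depth. In mural cells the leading pair was Itga1 with Itgb1 (80.0% of cells), and in endothelial cells it was the same pair (72.9%), followed by Itga5 with Itgb1 (63.5%). In cancer cells it was Itgav with Itgb1 (70.1%), at a median of 29266 UMIs. Itgav with Itgb8, at 19.7% there, reached 10% in no other of the 7 lineages, all of them shallower. Thinned, it was left in 4 of 1148 cancer cells and 1 of 740 T and NK cells, too few to compare. Among CD4 T cells 9.88% held this pair, 3 of 58 in WT (5.17%) and 5 of 23 in TSK (21.7%). T and NK cells, which hold almost no Itgb5, had Itgav with Itgb5 in 0.536% of cells at a median of 5424.5 UMIs, a share that reads as background.

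**Figure D5:**
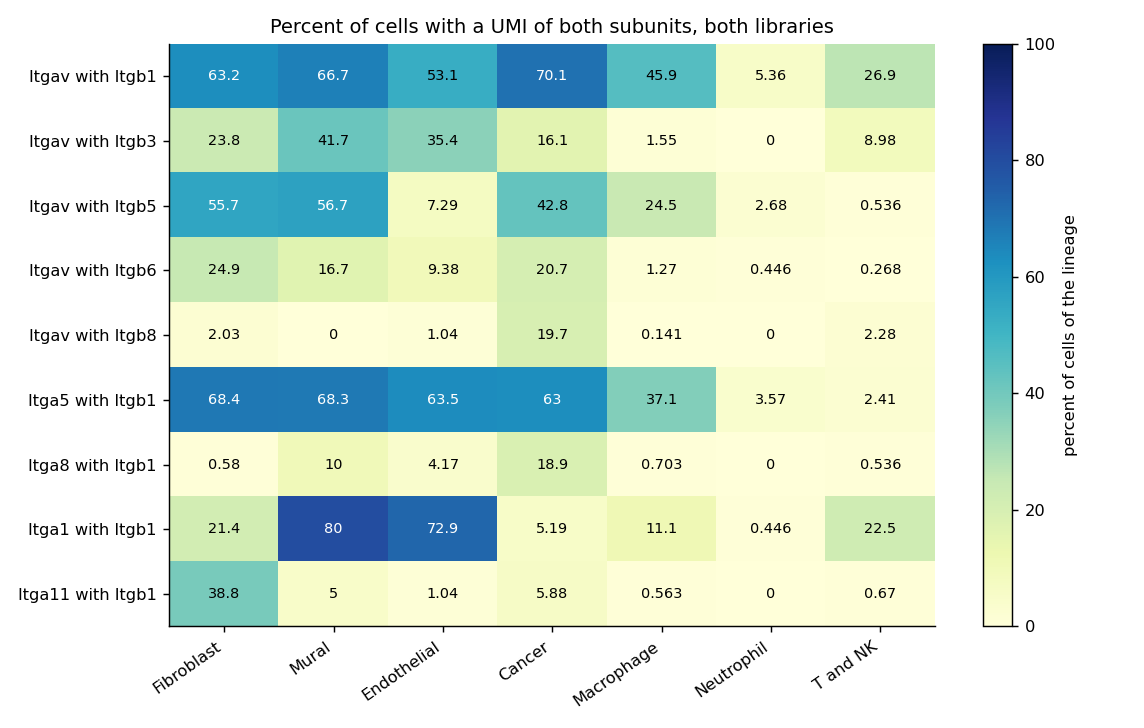
Rows are the 9 pairs, columns the 7 lineages, and each cell gives the percent of cells of the lineage, both libraries summed, with a UMI of both subunits, also shown by colour on a scale from 0 to 100. Itga1 with Itgb1 is at 80 in mural cells and 5.19 in cancer cells, and Itga5 with Itgb1 is above 60 in fibroblasts, mural, endothelial and cancer cells.

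The ligands were listed with the receptors. Fbn1 itself was at 1699 CPM in fibroblasts, 646 in mural cells and 58.9 in cancer cells; in fibroblasts it was at 1533 in WT and 1913 in TSK, and 3′ UMIs do not tell the duplicated from the normal transcript. Of the 12 RGD ligands, 10 had at least 50 UMIs in fibroblasts, of which 2 were 2-fold or more higher in TSK, against 5.94% of all genes, and none lower, against 2.70%. These were Spp1, osteopontin, at 303 and 1100.3, and Tnc, tenascin-C, at 443 and 1574; no RGD codons were found in the mouse Tnc coding sequence searched, although the gene was on the list. The median of the 10 log2 ratios was 0.59, beside 0.25 for all genes. In cancer cells 3 of 10 were 2-fold or more lower, against 6.56% of all genes, and none higher, against 9.69%, with Spp1 at 6970.1 and 3303 and Fbn1 at 120.1 and 53.3. Fn1, fibronectin, had the most UMIs of the list in fibroblasts, 2237 and 3467 CPM. In T and NK cells Fn1 was at 9.67 and 83.3 and Spp1 at 42.1 and 192, genes with high levels in cancer cells and macrophages.

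Of the 7 collagen genes, none was past 2-fold in fibroblasts, against 5.94% of all genes higher and 2.70% lower. Their median log2 ratio was 0.04, with Col1a1 at 10257 and 8631 and Col3a1 at 12447 and 11660.1. Of the 4 carriers and anchors of latent TGF-β, 3 had at least 50 UMIs in fibroblasts and none was past 2-fold, against the same shares of all genes. Ltbp1, which ties latent TGF-β to fibrillin, was at 167 and 131. Of the 16 cytoplasmic partners of integrins, 14 had at least 50 UMIs in fibroblasts. Of these, 1 was 2-fold or more higher (Sharpin, 7.71 and 16.2), against 5.94% of all genes, and none lower, against 2.70%. Their median log2 ratio was 0.39. Vcl, vinculin, which had most UMIs with Zyx, was at 167 and 169.8, and Zyx, zyxin, at 147 and 210.4.

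Other integrins were set beside the members from lists fixed by class. Itga2, the alpha subunit of another collagen receptor, was at 74.5 in endothelial cells over both libraries, with 27 UMIs in WT and 79 in TSK (28.2 and 169). Of the 4 laminin-binding subunits, Itga6 was the most found, at 328 in endothelial and 153 in mural cells. Of the 9 leukocyte and other subunits, 7 had at least 50 UMIs in macrophages and monocytes, 2 were 2-fold or more lower in TSK (Itgb7, 49.8 and 16.4, and Itgal, 59.6 and 28.1), against 1.92% of all genes, and none higher, against 5.34%. Their median log2 ratio was -0.60, beside 0.20 for all genes, and Itgam, with the most UMIs, was at 342 and 327.

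The genes most like each member over the 7 lineages were named by Pearson's r of log2(CPM + 1) among 15104 genes with at least 50 UMIs; with 7 points that share libraries this is a description. For Itgb1 they were Csrp1 (0.995), Pigq and Ice1, for Itga1 Sugp2 (0.985), Myl6 and Myh9, for Itga5 Fer (0.988), Rnd3 and Phldb1, and for Itga11 Adcy5 (0.994), Mapk9 and Tnxb. For Itgav they were Zfp429 (0.986), Ifi213 and Atp2b4, for Itgb3 Ccser2 (0.969), Itga2 and 2610008E11Rik, and for Itgb5 Cd302 (0.979), Akap7 and Cog7. For Itgb6 they were Ssx2ip (0.995), Ikbip and Arl1, for Itgb8 Bmp7 (0.961), Gm7247 and Elovl4, and for Itga8 Tbca (0.996), Dph7 and 1700045H11Rik. Among the members the closest were Itgb5 with Itga5 (0.85), Itgb6 with Itga5 (0.85) and Itgb1 with Itga1 (0.84).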

How the data were processed

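Tumors were dissociated, depleted of erythrocytes and dead cells and sequenced with the 10x 3′ v2 kit. The authors deposited UMI counts per gene and cell, made with Cell Ranger 7.1.0 per the file headers on mm10 per the processing notes; whether intronic reads were counted is not given in the sources used here, and 4 members (Itgav, Itga5, Itga8, Itga1) overlap other annotated genes. Barcodes found in both libraries (263) were left out. A cell took the lineage with at least 3 marker UMIs from 2 markers and 67% of its marker UMIs. After the clusters had been seen, 15 fixed markers were dropped that were found in several lineages or led a cluster held by the WT library alone. The neutrophil markers Retnlg and G0s2 were among them. That WT cluster, led by Ccl6 and Retnlg, had 45 cells, of which 44 stayed unassigned. In all, 1009 cells stayed unassigned (22.5% of WT, 23.1% of TSK). Mixed cells were thereby set aside; no doublet caller was run. Leiden clusters (2000 variable genes, 30 components, 20 neighbours, without integrin and sex-linked genes; leidenalg 0.10.2) were named by leading genes. UMIs were summed per lineage, with exact Poisson, binomial (Clopper-Pearson) and conditional 95% intervals (scipy 1.17.1) that cover counting error only. On counts simulated with counting error alone, which is what these intervals assume, they covered the true ratio for 95.5% (fibroblast) of genes. That check left out the spread between cells, such as 24 of 49 WT mural Itgb6 UMIs in 1 cell. Members, lists and splits were chosen with earlier results of these data known. All 10 members are named, and list examples are the genes with most UMIs or those past 2-fold. Alternatives are given in the closing section.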

Additional observations from a re-analysis of the deposited data

Results flagged for a closer look

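Itga1 was past 2-fold in opposite directions in 2 lineages, with log2 ratios (TSK against WT) of 1.60 in cancer cells, from 3 WT and 99 TSK UMIs, and -1.36 in macrophages and monocytes, from 138 and 46 UMIs. With 1 library per genotype the difference between the lineages was not tested.

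The barcodes found in both libraries, which no comparison used, also held UMIs of every member above the limit that a count of 0 allows (0.860 CPM over the 506 cells that passed the filter, with a median of 854.5 UMIs). As CPM, Itgb1 was at 429, Itgav at 119.9, Itga1 at 107, Itga5 at 90.6, Itgb5 at 41.9, Itgb6 at 41.6, Itgb3 at 30.7, Itga8 at 12.0, Itgb8 at 10.0 and Itga11 at 1.72. Itga11, highest in fibroblasts among the lineages, was the only member below 10 there.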

How the results depend on the processing

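No paired analysis was possible because each genotype has 1 library, and the same limit means that no library could be left out. The 4 counts compared were the members with the same leading lineage (10 of 10 as reported), the combinations 2-fold higher (5) and lower (4) in TSK, and the fibroblast pairs in at least 10% of cells (7). With at most 10000 UMIs per cell they were 5, 2, 2 and 4, with 24 of 40 ratios no longer measured, and the 2 lower were Itga1 in endothelial cells and in macrophages. With a stricter marker rule the leading count was 5 and the lower count 2, with lineages taken from clusters the lower count was 2, and with a minimum of 20 UMIs the higher count was 8. Thinning to 1000 UMIs left 0 pairs. Alternatives chosen after seeing the data gave 5, 1, 2 and 4 for cells of 2000 to 10000 UMIs, a leading count of 6 and a lower count of 2 with all fixed markers, and a higher count of 3 without neutrophils. In the other settings tried (20% mitochondrial UMIs, shared barcodes kept, 1000 UMIs, mean of cells, medians at 0, equal library weight, cells with a Foxp3 UMI left out) each count they gave stayed within 1.5 times. None of the 9 ratios past 2-fold changed sign in a setting that measured it, but some smaller ones did, among them Itga5 in fibroblasts (0.86 as reported, -0.94 with at most 10000 UMIs and -0.96 at 2000 to 10000) and Itgb5 in fibroblasts (0.22, -0.29 and -0.26). The log2 ratio of Itgav in T and NK cells was 1.24 to 1.45 and that of Itga1 in macrophages -1.56 to -1.15 over 13 settings, Itgb6 in fibroblasts -1.31 to -1.04 over 11, and Itgb3 in cancer cells -1.37 to -0.55, past 2-fold in 7 of 11. Except where cells or genes were left out by construction, the cause was not tested. Depth limits Itgb8 and Itga8 outside cancer cells and every member in neutrophils.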
